A study of Mus musculus with 6 samples.

Results

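Surface proteins are used to place B lineage cells of the bone marrow between the pro-B and the pre-B stage, and the mRNAs of 10 of them were examined in mouse cells at the early large pre-B (LPre-B) stage. The 10 genes were *Flt3*, *Kit*, *Il7r*, *Il2ra*, *Cd2*, *Spn*, *Ptprc*, *Cd24a*, *Enpep* and *Cd93*. They were chosen by name, and each was found by its Entrez ID among the 13426 genes of the expression table. The study compared mice with deletion of *Upf1* in the B lineage (Upf1-cKO) with control mice (Ctrl), with 3 RNA sequencing libraries of sorted early LPre-B cells per group. UPF1 is an RNA helicase that acts in nonsense-mediated mRNA decay and other routes of mRNA degradation.

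Ctrl mice were Upf1 Flox/Flox, Mb1 +/+, and Upf1-cKO mice were Upf1 Flox/Flox, Mb1 Cre/+. The floxed *Upf1* alleles were thus shared by both groups, and only the Upf1-cKO mice carried Cre. Cre was expressed from the *Cd79a* (Mb1) locus, so deletion is limited to cells in which this B lineage locus is active. Mice were age-matched, of both sexes and on a C57BL/6 background, per the study's methods. The sort gate took large CD43+ cells that carried B220 and lacked CD2, surface IgM and lineage markers. The proteins of *Spn* (CD43), *Cd2* and *Ptprc* (of which B220 is a splice form) were therefore used to collect the cells of both groups, while the other 7 proteins were not part of this gate.

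In B cell development, pro-B cells depend on signals from stromal cytokines, among them stem cell factor through KIT and interleukin 7 (IL-7) through its receptor, whereas FLT3 marks earlier lymphoid progenitors. Once the heavy chain locus has been rearranged and a pre-B cell receptor is displayed, KIT and CD43 are lost and CD25 (*Il2ra*) and CD2 appear. CD24, BP-1 (*Enpep*) and AA4.1 (*Cd93*) are used in addition to subdivide these stages.

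Recovered reads totalled between 9732498 and 11006834 per library. The defining markers of B lineage progenitors were present in all libraries, with 12 of 12 listed genes in the table and summed levels of 2620.4 to 2875 normalised reads in Ctrl and 2998 to 3236 in the libraries labelled Upf1-cKO. A normalised read is a read per 1e6 after the authors' scaling. *Upf1* itself had 260.0, 203 and 259 normalised reads in Ctrl and 308, 283 and 299.7 in the libraries labelled Upf1-cKO, a log2 fold change of 0.31 (adjusted p = 0.00696, limma). The gene-level value was thus not lower in the latter group and does not resolve the deleted exons, so it was not used to check the labels in either direction, and the groups are called Ctrl and cKO-labelled from here on. Transcripts known as targets of nonsense-mediated decay, named with their values known, were higher in the cKO-labelled libraries, which is the direction that the labels give, with log2 fold changes of 2.33 for *Gas5*, 1.96 for *Gadd45b* and 3.29 for *Ddit3* (all called in limma).

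Of the 10 markers, 9 differed between the groups at an adjusted p below 0.05 in limma, against 52.7% of all genes tested. *Flt3* and *Kit* were higher in the cKO-labelled libraries, where 27.7% of all genes were higher, and 7 markers were lower, where 25% of all genes were lower. These 7 include *Cd2*, which passed the table's filter on low values only through the Ctrl libraries, as set out below. The filter thus favoured its fall and its place in the counts of this paragraph. *Spn* did not pass the test. A log2 fold change of at least 2 in size was reached by 3 markers, *Flt3*, *Kit* and *Il2ra*, against 1.63% of all genes. The background share depends on the value of 1 added before the logarithm, since 153 genes were higher and 66 lower by as much here, against 511 and 186 in edgeR on recovered reads, where *Cd2* also passed this size. Of the 3, *Flt3* and *Kit* were higher by as much, as were 1.14% of all genes, and *Il2ra* was lower by as much, as were 0.492% of all genes. The median log2 fold change of the 10 markers was -0.51 (all genes, 0.01), and the median of its absolute size was 1.03 (all genes, 0.36). Values of the 2 groups did not overlap in 9 of the 10 markers, against 58.8% of all genes. The cKO-labelled values were all higher in 2 of these (30.9% of all genes) and all lower in 7 (28% of all genes).

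**Figure D1:**
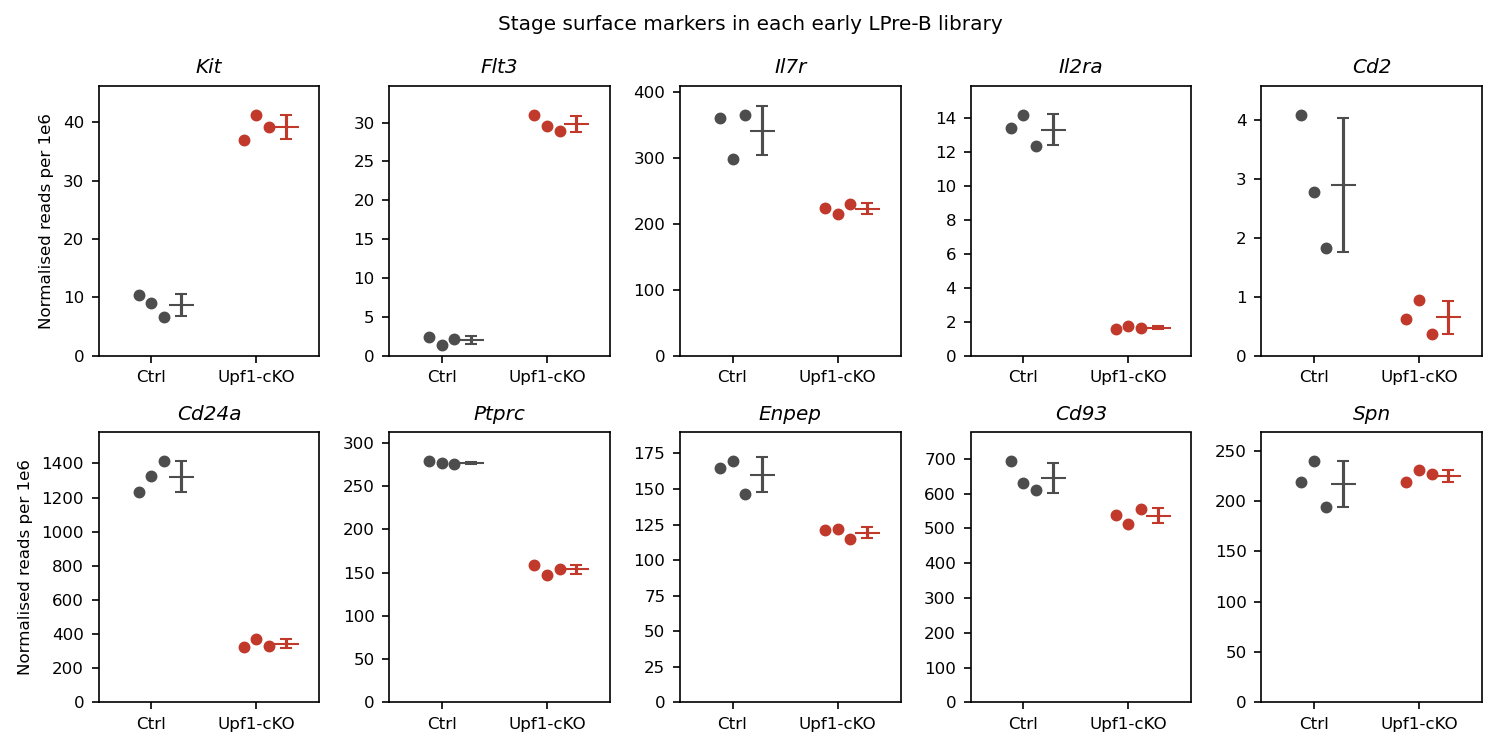
Normalised reads (per 1e6, linear axis from 0, a scale of its own for each gene) of the 10 markers in each Ctrl and cKO-labelled library, with horizontal lines at the group means and error bars of 1 SD (n = 3). Points of the groups are apart for every marker but Spn, with Flt3 and Kit higher and the other 7 lower in the cKO-labelled libraries.

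Among the 4 cytokine receptor genes, *Flt3* and *Kit* were higher in the cKO-labelled libraries, while *Il2ra* and, by less, *Il7r* were lower. *Flt3* (Entrez ID 14255, chromosome 5, 147330741 to 147400489, GRCm38) encodes the receptor tyrosine kinase for FLT3 ligand. It had 2.39, 1.46 and 2.23 normalised reads in Ctrl libraries 1, 2 and 3 and 31.0, 29.6 and 28.9 in cKO-labelled libraries 1, 2 and 3. *Flt3* was thus low in each Ctrl library and well above that level in each cKO-labelled one. Group means were 2.03 ± 0.495 and 29.8 ± 1.07 (SD, n = 3), a ratio of 14.7. The log2 fold change was 3.36 (95% confidence interval 3.0 to 3.72, adjusted p = 1.85e-11), which ranked 16 among the rises of the 13426 genes. The Ctrl values rested on only 14 to 22 reads per library and the cKO-labelled values on 317 to 342. Fold changes were computed on log2(value + 1), which understates changes of low genes, and edgeR on the recovered reads gave a log2 fold change of 3.91.

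*Kit* (Entrez ID 16590, chromosome 5, 75574987 to 75656722) encodes the receptor tyrosine kinase for stem cell factor, a growth signal for pro-B cells. It had 10.4, 9.04 and 6.70 normalised reads in Ctrl libraries 1, 2 and 3 and 37.0, 41.2 and 39.2 in the cKO-labelled libraries. The groups were widely apart, and Ctrl library 3 held the lowest value. Means were 8.70 ± 1.85 and 39.2 ± 2.11 (SD, n = 3), a 4.5-fold higher level in the cKO-labelled group, from 67 to 97 and 379 to 465 reads. The log2 fold change was 2.07 (95% confidence interval 1.76 to 2.37, adjusted p = 1.44e-09). It fell below 2 without Ctrl library 3 (1.91), with median centring (1.96) and with quantile normalization (1.96).

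*Il2ra* (Entrez ID 16184, chromosome 2, 11642792 to 11693194) encodes CD25, the alpha chain of the interleukin 2 receptor and a marker of pre-B cells in the mouse. It had 13.4, 14.2 and 12.4 normalised reads in Ctrl libraries 1, 2 and 3 and 1.61, 1.76 and 1.64 in the cKO-labelled libraries. Each group was tight, and the cKO-labelled values were all far below those of Ctrl. Means were 13.3 ± 0.921 and 1.67 ± 0.0776 (SD, n = 3), a 7.98-fold lower level, with 124 to 140 reads in Ctrl and 16 to 19 in the cKO-labelled libraries. The log2 fold change was -2.42 (95% confidence interval -2.80 to -2.05, adjusted p = 2.96e-09), which ranked 41 among the falls. In bulk libraries such as these, fewer cells with a transcript and less of it per cell cannot be told apart, which holds for every marker described here.

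*Il7r* (Entrez ID 16197, chromosome 15, 9506159 to 9529941) encodes the IL-7 receptor alpha chain, which pairs with the common gamma chain for IL-7 and with CRLF2 for thymic stromal lymphopoietin. It had 362, 299 and 366 normalised reads in Ctrl and 225, 215 and 231 in the cKO-labelled libraries. Unlike *Flt3* and *Kit* it was lower, without overlap, though by far less than *Il2ra*. Means were 342 ± 37.4 and 224 ± 7.96 (SD, n = 3), and the log2 fold change was -0.61 (95% confidence interval -0.78 to -0.43, adjusted p = 6.53e-06).

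The opposite moves of *Kit* and *Flt3* against *Il2ra* can also be given as ratios of genes within a library, in which the library's scale cancels. The ratio of *Kit* to *Il2ra* normalised reads was 0.771, 0.637 and 0.542 in Ctrl and 23.0, 23.5 and 23.9 in the cKO-labelled libraries. *Il2ra* thus had more reads than *Kit* in each Ctrl library, and fewer in each cKO-labelled one. The ratio of *Flt3* to *Il2ra* was 0.154 ± 0.044 in Ctrl and 17.9 ± 1.23 in the cKO-labelled group (SD, n = 3). *Kit* and *Flt3* did not rise by the same factor, since their ratio was 4.50 ± 1.59 in Ctrl and 1.32 ± 0.106 in the cKO-labelled group.

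The start regions of the 3 receptor genes that changed by a log2 of at least 2 are shown because these genes moved furthest. They were taken from a table of RefSeq start regions on build GRCm38.p6, in which 7 of the 10 markers were matched, and span 250 bases before the start site to 50 bases after it on the strand of the gene, written 5′ to 3′. *Kit* is at chr5:75574737-75575036 (plus strand), *Flt3* at chr5:147400440-147400739 (minus strand) and *Il2ra* at chr2:11642542-11642841 (plus strand). Capitals mark matches, on either strand, to GGAA, the core bound by ETS factors such as PU.1, and to CAGNTG, an E-box form bound by E proteins.
Kit: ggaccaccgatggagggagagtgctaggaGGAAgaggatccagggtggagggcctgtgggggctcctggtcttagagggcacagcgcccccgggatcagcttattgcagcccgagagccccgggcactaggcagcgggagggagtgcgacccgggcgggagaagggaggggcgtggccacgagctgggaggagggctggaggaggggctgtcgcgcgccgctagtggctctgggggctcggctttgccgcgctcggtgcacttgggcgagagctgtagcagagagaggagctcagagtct
Flt3: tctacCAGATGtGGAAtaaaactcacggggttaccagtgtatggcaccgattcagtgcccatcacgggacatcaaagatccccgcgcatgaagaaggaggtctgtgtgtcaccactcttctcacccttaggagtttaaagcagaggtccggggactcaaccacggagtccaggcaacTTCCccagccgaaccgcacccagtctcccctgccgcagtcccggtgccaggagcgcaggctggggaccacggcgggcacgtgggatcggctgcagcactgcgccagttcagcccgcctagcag
Il2ra: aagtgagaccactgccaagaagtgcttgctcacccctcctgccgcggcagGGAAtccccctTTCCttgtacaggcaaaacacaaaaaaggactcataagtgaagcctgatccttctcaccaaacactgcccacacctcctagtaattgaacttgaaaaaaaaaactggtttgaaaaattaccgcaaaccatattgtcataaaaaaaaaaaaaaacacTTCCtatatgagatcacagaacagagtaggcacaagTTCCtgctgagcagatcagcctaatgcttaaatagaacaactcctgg

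The region of *Kit* had a GC content of 69.0%, that of *Flt3* 61.0% and that of *Il2ra* 42.7%. GGAA matched at 1 place in *Kit*, 2 in *Flt3* and 4 in *Il2ra*, and it occurs in 96.0% of all 27025 promoters of this length. CAGNTG matched in *Flt3*, 245 bases before the start site, and in *Il7r*, against 51.1% of all promoters. TTCNNNGAA, the form bound by STAT factors, matched in *Il7r* and *Enpep* (8.42% of all promoters). TGGGAA, an Ikaros core that contains GGAA (25.5% of all promoters), and an EBF motif (0.899%) matched in none of the 7 markers with a region, and GATA in 3 of them (58.3%). A match is only a description of the letters.

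Of the 3 markers used in the sort gate, *Cd2* and *Ptprc* were lower in the cKO-labelled libraries and *Spn* did not pass the test. *Cd2* (Entrez ID 12481, chromosome 3, 101275908 to 101287939) encodes an adhesion receptor that binds CD48 and appears at the late LPre-B stage. It had 4.09, 2.78 and 1.84 normalised reads in Ctrl and 0.634, 0.947 and 0.379 in the cKO-labelled libraries. It was low in all libraries of both groups, which were sorted as CD2-, and lower in the cKO-labelled ones without overlap. The counts behind these values were 18 to 38 reads in Ctrl and 4 to 10 in the cKO-labelled libraries, so that *Cd2* was the least precise of the 10. It was also the marker that passed the table's filter on low values, above 0.5 normalised reads in at least 3 libraries, only through the Ctrl libraries, whereas the other 9 passed through either group. The filter thus favoured a fall of *Cd2*, and the p-values below do not account for this. Its direction is therefore given as a description and is no result. Means were 2.90 ± 1.13 and 0.653 ± 0.284 (SD, n = 3), a 4.44-fold lower level. The log2 fold change was -1.21 (95% confidence interval -1.72 to -0.70, adjusted p = 0.000362), and -2.21 in edgeR on the recovered reads (adjusted p = 0.000997), where no value of 1 is added.

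*Spn* (Entrez ID 20737, chromosome 7, 127123637 to 127145552) encodes the sialomucin CD43, by which the gate was drawn. It had 219, 239 and 194 normalised reads in Ctrl and 219, 230.4 and 227 in the cKO-labelled libraries. The cKO-labelled values lay inside the range of the Ctrl values. The log2 fold change was 0.06 (95% confidence interval -0.11 to 0.23, adjusted p = 0.579), so a change beyond this interval was not seen. This direction turned to -0.05 with median centring and to -0.02 without Ctrl library 3, and with scaling to total reads, where the median of all genes was 0.19, the log2 fold change was 0.26 (adjusted p = 0.0127).

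*Ptprc* (Entrez ID 19264, chromosome 1, 138062859 to 138175756) encodes the receptor tyrosine phosphatase CD45, which activates SRC family kinases by removing an inhibitory phosphate. It had 278, 276 and 276 normalised reads in Ctrl and 159, 148 and 155 in the cKO-labelled libraries. The Ctrl libraries hardly differed from each other, and all cKO-labelled values were lower. Means were 277 ± 1.44 and 154 ± 5.59 (SD, n = 3), and the log2 fold change was -0.84 (95% confidence interval -1.0 to -0.69, adjusted p = 1.63e-08). A gene-level value sums all splice forms of CD45, so the B220 form was not resolved.

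**Figure D2:**
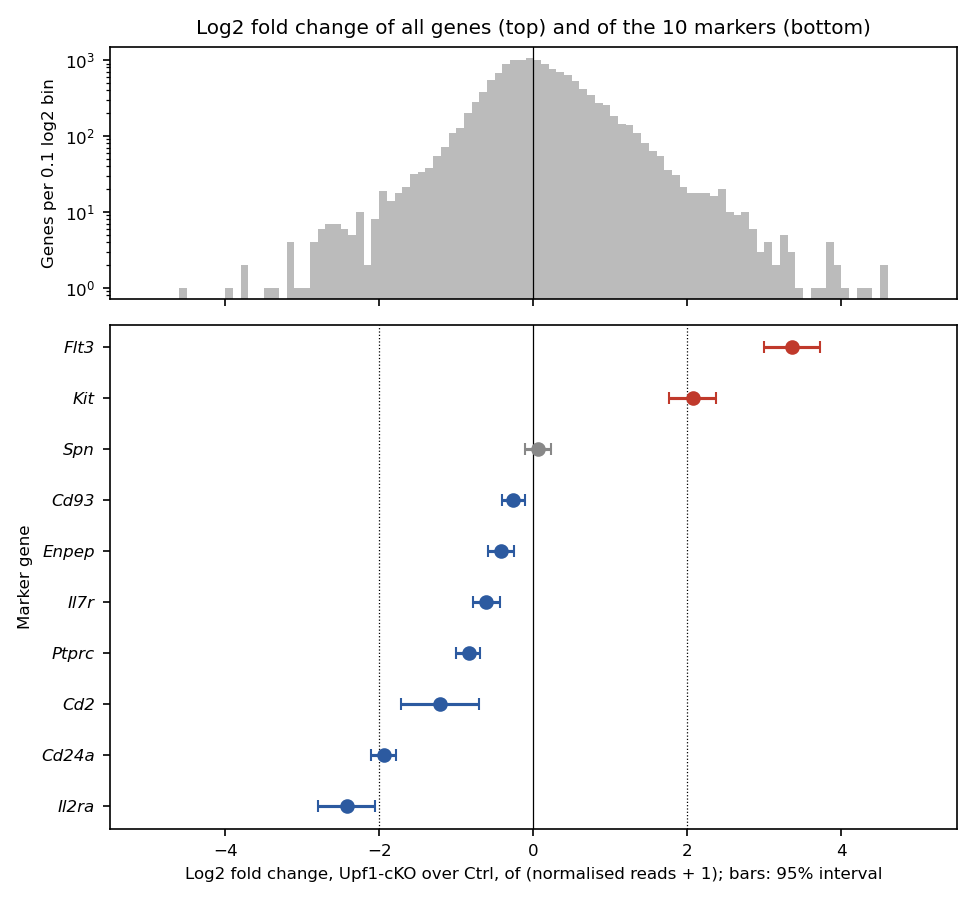
Log2 fold change (cKO-labelled over Ctrl, on log2 of normalised reads + 1) of all 13426 genes as a histogram with a log vertical axis (top) and of the 10 markers with 95% confidence intervals from limma (bottom, with dotted lines at a size of 2). Flt3 at 3.36 and Kit at 2.07 lie to the right of 0, the interval of Spn spans 0, and the other markers lie to the left of it, down to Il2ra at -2.42.

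The last 3 markers were lower to very different degrees. *Cd24a* (Entrez ID 12484, chromosome 10, 43579169 to 43584265) encodes heat stable antigen, a small lipid-anchored glycoprotein. It had 1231, 1324 and 1411 normalised reads in Ctrl and 327, 374 and 333 in the cKO-labelled libraries. As the marker with the most reads in Ctrl, it was the one with the largest difference in normalised reads, and the groups were far apart. Means were 1322 ± 89.98 and 345 ± 25.5 (SD, n = 3), a 3.84-fold lower level with a log2 fold change of -1.94 (95% confidence interval -2.10 to -1.78, adjusted p = 5.97e-13).

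*Enpep* (Entrez ID 13809, chromosome 3, 129269177 to 129332749) encodes BP-1, the enzyme glutamyl aminopeptidase, which is displayed from the large pre-B stage. It had 165, 169 and 146 normalised reads in Ctrl and 121, 122 and 115 in the cKO-labelled libraries. The lowest Ctrl value was still above the highest cKO-labelled one. Means were 160.2 ± 12.1 and 119 ± 3.65 (SD, n = 3), with a log2 fold change of -0.42 (95% confidence interval -0.59 to -0.25, adjusted p = 0.000238).

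*Cd93* (Entrez ID 17064, chromosome 2, 148436651 to 148443535) encodes the lectin-like AA4.1 antigen of immature B lineage cells. It had 692, 631 and 611 normalised reads in Ctrl and 539, 514 and 556 in the cKO-labelled libraries. This was the smallest of the 7 falls. Means were 645 ± 42.5 and 536 ± 21.4 (SD, n = 3), with a log2 fold change of -0.26 (95% confidence interval -0.41 to -0.11, adjusted p = 0.00465). The call was lost with quantile normalization (-0.06, adjusted p = 0.544) and with scaling to total reads (-0.06, adjusted p = 0.541).

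Levels were compared between markers per kilobase of annotated exon. This length was the union of exons over all annotated transcripts, with retained-intron forms among them. It can therefore exceed the length of the mRNA and make a level too low. It was 18.3 kilobases for *Ptprc*, with 8 retained-intron transcripts, and 8.91 for *Kit*, with 6. The order of the markers holds only for this measure. In Ctrl the order of the levels ran from *Cd24a* at 513 normalised reads per kilobase through *Cd93* at 96.6, *Il7r* at 73.4, *Spn* at 46.4, *Enpep* at 34.0 and *Ptprc* at 15.1. *Il2ra* at 2.33, *Cd2* at 1.67, *Kit* at 0.976 and *Flt3* at 0.329 followed. The values of *Il2ra* and *Cd2* overlapped between libraries, as did those of *Cd2* and *Kit*, so these neighbours were not separated beyond their spread, whereas the other neighbours were apart. In the cKO-labelled libraries *Cd24a* at 134, *Cd93* at 80.3, *Spn* at 48.1 and *Il7r* at 48.0 came first, with overlap between the latter pair. *Enpep* at 25.4, *Ptprc* at 8.39, *Flt3* at 4.83 and *Kit* at 4.40 came next, and *Cd2* at 0.375 and *Il2ra* at 0.293, which overlapped, came last. *Flt3* thus stood last of the 10 in Ctrl and seventh in the cKO-labelled group, and *Il2ra* seventh in Ctrl and last in the cKO-labelled group.

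The markers shared few features of their transcripts. None of the 10 shares exon bases with another gene (38.4% of all genes with annotation do), so overlap did not blur their counts, which were made without strand. Transcripts annotated as targets of nonsense-mediated decay exist for *Enpep* and *Spn*, 2 of 10, against 28.9% of all genes. An ATG upstream of the coding start was found in *Il2ra* and *Enpep* (51.2% of all genes), and a splice junction more than 55 bases after the stop codon, an arrangement recognised by nonsense-mediated decay, in none of the 10 (0.318% of all genes). ATTTA, the core of AU-rich decay elements, was found in the 3′ UTR of each of the 10 (66.9% of all genes), and these UTRs had a median length of 1786.5 bases against 1039 in all genes. They ranged from 61 bases in *Cd2* to 4606 in *Cd93*, with 433 in *Flt3*, 2180 in *Kit* and 3414 in *Il2ra*.

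Other surface markers of B cell staging moved in both directions. Of 30 listed genes 28 were in the table, with 10 higher, 8 lower and 10 not called, and a median log2 fold change of -0.08. For this list and the lists that follow, the shares over all genes were 27.7% higher and 25% lower. *Ly6a* (Sca-1, a marker of stem and progenitor cells) had 0.392 ± 0.211 normalised reads in Ctrl and 8.02 ± 2.15 in the cKO-labelled libraries (log2 fold change 2.68). It passed the low-value filter of the table only through the cKO-labelled libraries, as did *Cd40*, which was also called higher. The filter favoured both rises, so their direction is no result. *Bst1* (BP-3, an early B lineage antigen) rose from 30.5 ± 0.365 to 121 ± 13.3 (1.94) and *Ly6d*, which marks B-biased lymphoid progenitors, from 5.52 ± 1.35 to 20.4 ± 4.04 (1.72). *Cr2*, the complement receptor CD21 of mature B cells, rose by 0.81 on the log2 scale. Of the falls, *Cd22* and *Cd72* were the largest. *Cd22*, an inhibitory co-receptor, went from 207 ± 2.04 to 28.5 ± 6.24 (log2 fold change -2.84) and *Cd72*, another inhibitory co-receptor, from 308 ± 56.3 to 61.7 ± 5.20 (-2.29). *Cd79a*, a signalling chain of the pre-B and B cell receptor, went from 221 ± 11.4 to 73.3 ± 1.85 (-1.58), and the Cre gene of the cKO-labelled mice sits in 1 allele of this locus. *Cd180*, a Toll-like receptor relative, changed by -1.32.

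**Figure D3:**
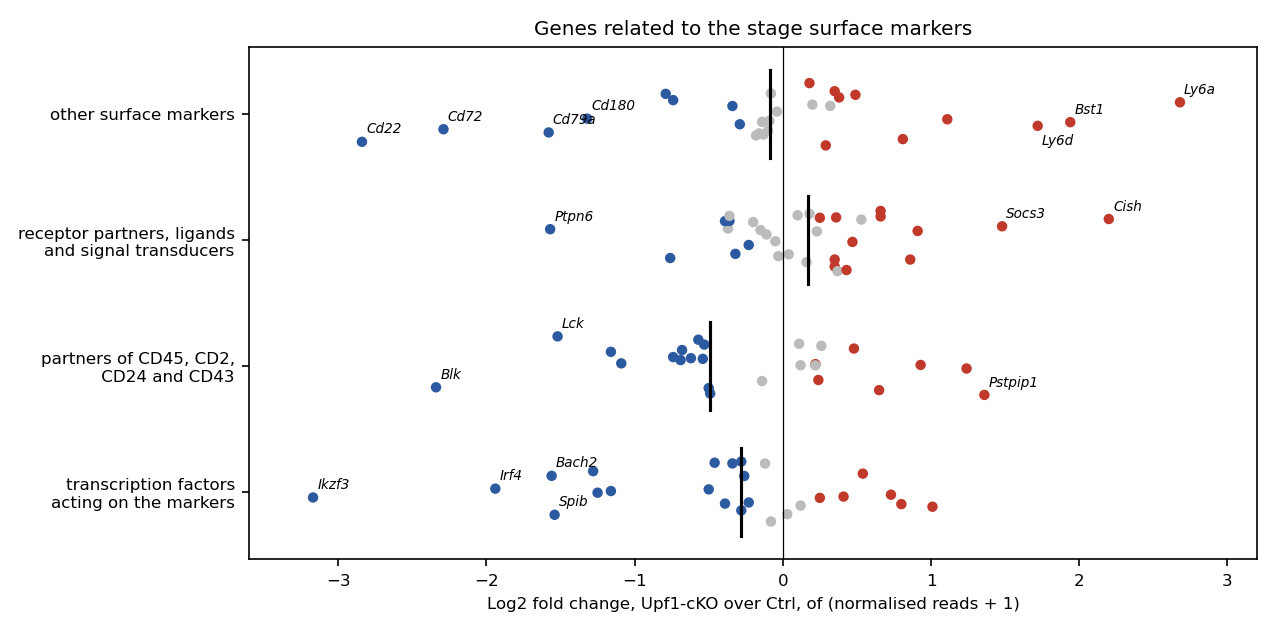
Log2 fold change (cKO-labelled over Ctrl, limma) of each gene in the table from the 4 lists of related genes, in red where higher, blue where lower and grey where not called, with a vertical line at each list's median and some of the genes described in the text labelled (vertical scatter within a list has no meaning). The median is -0.08 for other surface markers, 0.17 for receptor partners, -0.49 for partners of CD45, CD2, CD24 and CD43 and -0.28 for transcription factors.

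Of 36 listed partners, ligands and signal transducers of the 4 cytokine receptors, 32 were in the table, with 12 higher, 6 lower and 14 not called (median log2 fold change 0.17). The ligand genes *Kitl*, *Il7* and *Il2* were not analysed here. The rises included the feedback inhibitors of cytokine signalling *Cish*, from 4.21 ± 1.09 to 22.7 ± 2.03 normalised reads (log2 fold change 2.20), *Socs3* (1.48) and *Socs2* (0.91), and the kinase gene *Jak2* (0.86). Falls were seen in *Ptpn6*, the inhibitory phosphatase SHP-1, from 254 ± 32.8 to 84.1 ± 3.03 (-1.57), the ubiquitin ligase gene *Cblb* (-0.76), the kinase gene *Jak1* (-0.39) and the adaptor gene *Grb2* (-0.36). Of genes outside the naming rule and chosen after their values were seen, *Il2rg*, the common gamma chain that pairs with the *Il7r* and *Il2ra* products, had a log2 fold change of -0.20 and did not pass the test (adjusted p = 0.200). *Crlf2*, the other partner of the *Il7r* product, was higher (0.35, adjusted p = 0.0406) with groups that overlapped. *Stat5a* (0.36) and *Stat5b* (0.66), whose proteins carry IL-7 signals, were both higher.

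Of 26 listed partners of CD45, CD2, CD24 and CD43, 25 were in the table, with 7 higher, 13 lower and 5 not called (median log2 fold change -0.49). The SRC family kinase genes, whose products CD45 acts on, did not move together. *Blk* went from 216 ± 14.7 to 42.0 ± 4.97 normalised reads (log2 fold change -2.34), *Lck* changed by -1.52 and *Lyn* by -1.09, whereas *Fgr* (0.65), a kinase gene of myeloid cells, was higher from a low level. *Ptprcap*, which encodes a protein bound to CD45, went from 231 ± 31.3 to 103 ± 11.5 (-1.16), beside the -0.84 of *Ptprc*. *Pstpip1*, which encodes an adaptor bound by the tail of CD2, rose from 16.8 ± 1.39 to 44.6 ± 1.31 (1.36), and *Cd244a*, another receptor for the CD2 ligand CD48, rose by 1.24 on the log2 scale. *Cd48* itself, named outside the rule with its value known, fell by 0.54 on the log2 scale.

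Of 26 listed transcription factor genes with known roles at these receptor and marker genes, 25 were in the table, with 6 higher, 15 lower and 4 not called (median log2 fold change -0.28). *Ikzf3* (Aiolos, an Ikaros family factor of pre-B cells) went from 318 ± 19.3 to 34.4 ± 2.91 normalised reads, a log2 fold change of -3.17. *Irf4*, a factor of the pre-B stage, went from 466 ± 9.32 to 121 ± 9.18 (-1.94), and *Bach2* (-1.56) and *Spib* (-1.54) were lower too. The higher ones were led by *Bcl11a*, a lymphoid progenitor factor, from 145 ± 10.3 to 293 ± 9.28 (1.01), and by *Tal1* (0.80), *Hhex* (0.73) and *Lmo2* (0.54), which act in early progenitors. *Tal1* was low in both groups, with means of 1.64 and 3.57 normalised reads. Other factors that act in progenitors, named outside the rule with their values known, were lower: *Ikzf1* (-1.28), *Spi1* (-1.16), *Myb* (-0.50) and *Runx1* (-0.23). *Pax5* (-0.12, adjusted p = 0.218) and *Ebf1* (0.03, adjusted p = 0.772), both B lineage commitment factors chosen after their values were seen, did not pass the test.

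The genes most like each of the 9 called markers across the 6 libraries were found by Pearson's r of log2(value + 1), as a description in which the points share the 2 groups. For *Kit* they were *Camk1d*, *Arhgef2* and *Trim46* (r from 0.9986 to 0.9989), for *Flt3* *Tbc1d32*, *Arih2* and *Arhgef10* (0.9992 to 0.9996) and for *Il2ra* *Ehd4*, *Rab9* and *Myl4* (0.9992 to 0.9997). *Ptprc* was most like *Irf4*, *Msn* and *H2bu1-ps* (0.9991 to 0.9999), and *Cd24a* most like *Timeless*, *L3mbtl3* and *Ighv14-3* (0.9992 to 0.9995). For *Il7r* they were *Cenpn*, *6330407A03Rik* and *Ccdc186*, for *Enpep* *Fkbp8*, *Ankrd52* and *Cs*, for *Cd2* *Cenpb*, *Fbxw11* and *Wwp2* and for *Cd93* *Cdkn2d*, *Thbd* and *Lbr* (0.9907 to 0.9989).

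Listed markers of several other marrow cells were examined beside *Kit* and *Flt3*, which such cells can also express. Every gene in the table exceeded 0.5 normalised reads in at least 3 libraries. For a gene that did so only through the cKO-labelled libraries this filter favoured a higher value there, so its direction is no result. Of 11 listed genes of haematopoietic stem and multipotent progenitor cells 6 were in the table, 4 of them (*Ly6a*, *Hoxa9*, *Hlf* and *Slamf1*) only through the cKO-labelled libraries, with summed levels of 8.71, 8.18 and 11.3 normalised reads in Ctrl and 35.7, 40.5 and 35.2 in the cKO-labelled libraries. The other 2 genes, *Meis1* (log2 fold change 1.18) and *Tal1* (0.80), passed this level in all libraries of both groups and were higher in the cKO-labelled ones, while *Cd34*, *Mecom*, *Procr* and *Gata2*, among others, were not analysed here. Of 8 listed genes of mast cells and basophils 3 were in the table, all 3 only through the cKO-labelled libraries, with sums of 0.758 to 3.24 in Ctrl and 6.78 to 9.06 in the cKO-labelled libraries, and *Cpa3*, *Fcer1a*, *Ms4a2*, *Tpsb2* and *Cma1* were not analysed here. Of 8 listed dendritic cell genes 4 were in the table, with 1 higher and sums of 3.476 to 6.06 and 5.06 to 6.83. Of 10 listed neutrophil genes 10 were in the table, 3 of them only through the cKO-labelled libraries, and 5 were higher, with sums of 121, 21.5 and 14.8 in Ctrl and 461, 356 and 328 in the cKO-labelled libraries. The part of such cells in the *Kit* and *Flt3* values was not tested.

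**Figure D4:**
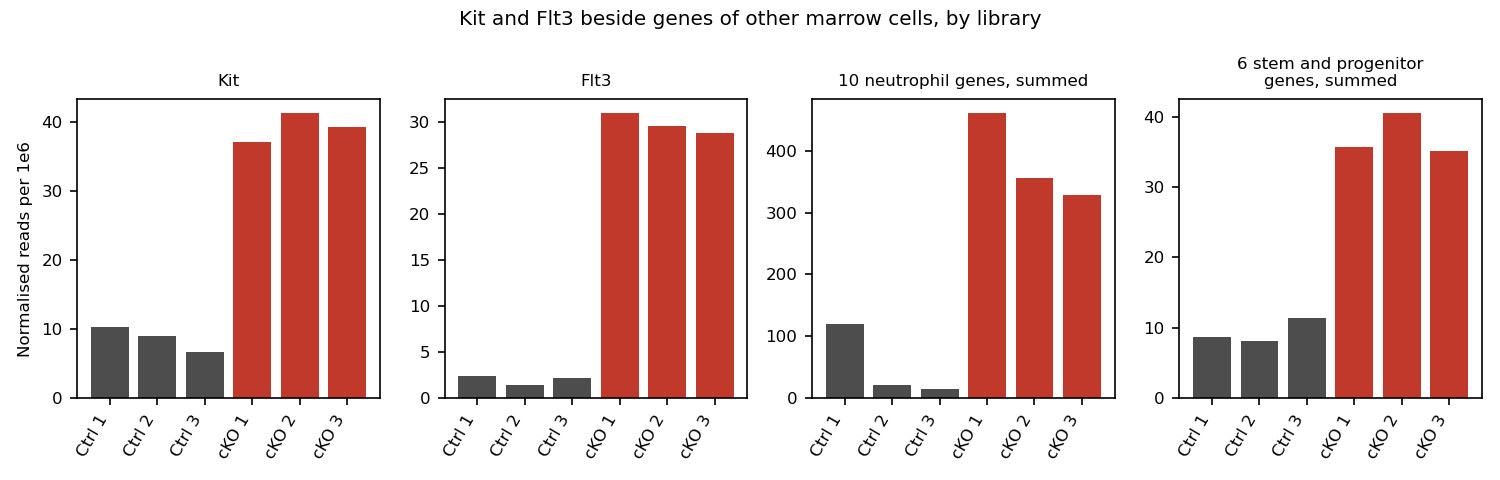
Normalised reads (per 1e6, linear axis from 0) of Kit and Flt3, and summed over 10 neutrophil genes and 6 stem and progenitor genes, in each Ctrl and cKO-labelled library (1 bar each). Neutrophil sums reach 328 to 461 in the cKO-labelled libraries against 14.8 to 121 in Ctrl, and stem and progenitor sums reach 35.2 to 40.5 against 8.18 to 11.3, with 4 of these 6 genes in the table only through the cKO-labelled libraries.

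Sums of the remaining lists were higher, lower or overlapping, and some of their genes too were in the table only through 1 group. Of 10 listed myeloid genes 8 were in the table, with 3 higher and 1 lower, and sums of 63.4 to 97.9 in Ctrl and 83.4 to 114 in the cKO-labelled libraries. Of 12 T cell genes 3 were in the table (sums of 7.28 to 12.2 and 9.48 to 14.1, 1 higher), and of 11 natural killer and innate lymphoid genes 3 were (2.17 to 2.82 and 4.55 to 5.90, 1 higher). Erythroid genes, 5 of 10 in the table, had sums of 8.74 to 12.8 and 9.23 to 11.3, with none called. Genes of mature B cells, 6 of 8, had sums of 25.9 to 32.7 and 40.5 to 44.8, with 3 higher, and genes of plasma cells, 5 of 6, had sums of 276 to 311 and 127 to 134, with 3 lower. Stromal and endothelial genes, 3 of 10, had sums of 81.0 to 109 and 91.2 to 94.3, with 1 higher.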

How the data were processed

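RNA of sorted early LPre-B cells was sequenced in 3 Ctrl and 3 Upf1-cKO libraries, grouped by the genotype given in the labels. Per the labels and the study's methods, libraries were prepared with a directional kit, and the authors trimmed reads with cutadapt 4.0, aligned them to mm10 with HISAT2 without use of strand, counted them per gene with featureCounts 2.0.1 and tested them with limma 3.48.0. The values the authors deposited are a linear signal for each Entrez ID. In every column they were whole reads plus 0.5, taken per 1e6 of a scaled library size, and whole reads (within 0.05) were recovered for 100% of values.

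Symbols came from RefSeq on GRCm38.p6, which named 13008 of 13426 IDs, and transcript features from GENCODE for 12155 genes. limma 3.58.1 in R 4.3.3 was fitted to log2(value + 1) of all genes, with an intensity trend, robust estimation and Benjamini-Hochberg adjustment, two-sided, and a gene was called at an adjusted p below 0.05. All adjusted p-values are from this fit unless another tool is named. The fit was tested on simulated data. Related genes were named by a rule, the 4 largest changes in each direction of each list among called genes with a mean log2 value of at least 1 and groups that did not overlap, besides those said to be chosen later, and some genes that met it are not reported here. The markers and gene lists were chosen with earlier results of these data known. Within a group, libraries differed beyond counting noise (chi-square of 4.39 to 22.0 for each degree of freedom), so none was treated as the same library deposited again, which does not show that they came from separate animals. The study calls its replicates biological. Where replicates share an origin, p-values measure only the spread between these libraries. Read counts carry no molecular identifiers, so their precision covers counting error only. Alternatives were other scalings, pseudocounts, a filter on low values, eBayes without trend, voom, edgeR 4.0.16 and DESeq2 1.42.0 on recovered reads, a replicate block and leaving out each library.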

Additional observations from a re-analysis of the deposited data

How the results depend on the processing

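*Flt3*, *Kit*, *Il2ra*, *Cd24a*, *Ptprc*, *Il7r*, *Enpep* and *Cd2* kept their direction and their call under all 17 alternatives, with log2 fold changes of 3.22 to 3.91, 1.91 to 2.26, -3.05 to -2.26, -2.05 to -1.68, -0.95 to -0.64, -0.71 to -0.40, -0.53 to -0.22 and -2.25 to -1.0. All alternatives started from the same filtered table, which holds *Cd2* only through the Ctrl libraries, so they could not test the direction of *Cd2* apart from that filter. *Cd93* was no longer called with quantile normalization (-0.06) or scaling to total reads (-0.06). *Spn* turned to -0.05 with median centring and was called at 0.26 with scaling to total reads. Leaving out each library gave -0.02 to 0.13 for *Spn*, -0.30 to -0.21 for *Cd93*, and 2 higher and 7 lower markers each time, with 2 or 3 past a log2 of 2. Over all genes, 3725 were higher and 3351 lower (52.6% of calls higher), and scaling to total reads left 1936 lower (72.8% higher), while median centring gave 40.7% higher. Genes higher by a log2 of at least 2 numbered 153, but 486 with DESeq2, 511 with edgeR, 540 with voom, 523 with no pseudocount and 426 with a pseudocount of 0.1. Genes lower by as much numbered 66, but 196, 186, 202, 194 and 172 in the same order. *Cd2* then passed this size too in DESeq2 (-2.25), edgeR (-2.21), voom (-2.17) and with no pseudocount (-2.17), so 4 markers did, whereas with quantile normalization *Kit* was at 1.96 and 2 markers did. Same-numbered libraries did not deviate together (r of 0.089, -0.029 and -0.032), and with the replicate block no call among the 10 markers changed (*Kit* 2.07, *Flt3* 3.36, *Il2ra* -2.42). The low counts of *Cd2*, of *Flt3* in Ctrl and of *Il2ra* in the cKO-labelled libraries limit the precision of their folds.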
